A study of Mus musculus with 2 samples.

Results

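Tight junctions seal the space between neighbouring cells. In the epidermis they form in the granular layer, below the stratum corneum. Claudins are membrane proteins with 4 passes that line up in strands and set which ions and molecules pass between cells, occludin is a further membrane protein of the strands, and ZO-1, the product of *Tjp1*, belongs to the plaque that ties both to the actin cytoskeleton. The genes described here are *Cldn1*, *Cldn3*, *Cldn4*, *Cldn6*, *Cldn7*, *Cldn8*, *Cldn23*, *Ocln* and *Tjp1*, 9 of 30133 genes on the array, and their probes are the 12 that carry one of these names in the scanner files.

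*Pnpla1*-/- mice and their wild-type *Pnpla1*+/+ (WT) littermates, both on the C57BL/6N background, were compared in skin taken at postnatal day 0, to see how the loss of PNPLA1, an enzyme of acylceramide synthesis, changes gene expression in skin. The knockout line carries the *Pnpla1*tm1a(KOMP)Wtsi allele, made in C57BL/6N embryonic stem cells, from which flippase removed the LacZ and Neo cassettes, and the allele that remained is not described further in the sources used here. Total RNA of 6 animals was pooled for each genotype and hybridized with Cy3 to 1 Agilent mouse array, so that every value below is that of a pool, no SD between mice exists and no test between the genotypes was possible. To bring both arrays to the same scale, each intensity was divided by the 75th percentile of its array, 2108 in WT and 1734 in *Pnpla1*-/- skin, to give the scaled signal. A difference is log2 of the scaled signal in *Pnpla1*-/- minus that in *Pnpla1*+/+ skin, and its error is that of the scanner software's error model for the 2 spots, which covers the measurement and not the mice. *Pnpla1* itself had an intensity of 579 in WT and 114 in *Pnpla1*-/- skin, a difference of −2.07 ± 0.22, with its probe well above background on both arrays. By quantitative PCR and immunohistochemistry, the authors reported *Pnpla1* RNA and protein as absent from *Pnpla1*-/- skin. What the array probe measured there was not tested. In RNA from whole skin, fewer cells of a type and less RNA per cell cannot be told apart.

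The claudin genes differed by unlike amounts. *Cldn23* and *Cldn3* were lower by at least 2-fold in the *Pnpla1*-/- pool, *Cldn8* and *Cldn1* were lower by less than 2-fold, *Ocln* differed by less than its measurement error, and *Cldn4*, *Cldn7* and *Tjp1* were higher by less than 2-fold. With centring on spike-in RNA, *Cldn4* and *Cldn7* came to −0.15 and −0.0025, and with normexp background correction *Cldn3* came to −0.94, under 2-fold. Neither array measured *Cldn6*, a claudin of embryonic epithelia, well above background. Over the 8 genes with a difference the median was −0.23, against 0.0027 over all 22383 genes with a value. Over these 8 genes it ranged from −0.66 with spike-in centring to −0.14 with cyclic loess. With no filter on dim probes, which adds *Cldn6*, the median was −0.0027, against 0.10 over all genes. No member was at least 2-fold higher, where 6.7% of all genes were, and 2 of 8 were at least 2-fold lower, where 3.04% of all genes were. In either direction this is 2 of 8, where 9.74% of all genes passed 2-fold.

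The sequences upstream of 3 members are shown because they belong to adjacent genes, *Cldn3* with a difference past 2-fold and *Cldn4* with a smaller one whose sign at the brighter probe depended on the scaling, and to a gene with 2 start sites and a probe between them, *Cldn7*. They are RefSeq promoters on GRCm38.p6, whereas probe coordinates below come from the scanner files and are on mm9. Each is the 250 bases before the start site, on the strand of the gene. *Cldn3* lies at chr5:134985964-134986213 on the plus strand and *Cldn4* at chr5:134946935-134947184 on the minus strand. In these sequences capitals mark CCACCC, a letter pattern bound by Klf factors, CACCTG, the E-box of Snai and Zeb repressors, and CCGGAA, the core of ETS factors such as Ehf and Elf3, each on either strand.
Cldn3: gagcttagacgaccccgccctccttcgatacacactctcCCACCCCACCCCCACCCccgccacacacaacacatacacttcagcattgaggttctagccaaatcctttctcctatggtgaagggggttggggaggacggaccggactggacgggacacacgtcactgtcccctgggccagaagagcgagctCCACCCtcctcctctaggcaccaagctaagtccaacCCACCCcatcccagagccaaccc
Cldn4: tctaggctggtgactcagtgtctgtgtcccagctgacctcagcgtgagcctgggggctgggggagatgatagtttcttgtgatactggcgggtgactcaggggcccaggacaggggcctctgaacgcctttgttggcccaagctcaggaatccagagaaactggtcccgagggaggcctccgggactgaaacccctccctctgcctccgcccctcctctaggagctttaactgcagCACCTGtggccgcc
The *Cldn3* sequence holds CCACCC 5 times, partly overlapping, and none of the other patterns, and that of *Cldn4* holds CACCTG once. Among 32851 promoters of the same length, 28.1% hold CCACCC, 17.2% CACCTG and 12% CCGGAA. AACCGGTT, the pattern of grainyhead factors such as Grhl3, is in 0.116% of them and in none of the 9 sequences found for *Cldn1*, *Cldn3*, *Cldn4*, *Cldn6*, *Cldn7*, *Ocln* and *Tjp1*. A match describes the letters and is not a binding site, and no sequence is shown for *Cldn8* and *Cldn23*.

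The 2nd start site of *Cldn7*, on the plus strand of chromosome 11, has a probe of the array in the window before it, at chr11:69965171-69965420. Here capitals mark the 60 bases of that probe, which run from 151 to 92 bases before the start site.
Cldn7: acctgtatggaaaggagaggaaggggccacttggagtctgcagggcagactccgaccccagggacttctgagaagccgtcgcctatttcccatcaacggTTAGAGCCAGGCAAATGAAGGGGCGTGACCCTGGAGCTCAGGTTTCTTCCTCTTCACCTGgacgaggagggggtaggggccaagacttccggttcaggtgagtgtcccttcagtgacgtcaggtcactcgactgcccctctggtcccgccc
The window also holds CACCTG 2 times and CCGGAA 1 time, counted on either strand and not marked here, and that of the 1st start site, not shown, holds CCACCC and CCGGAA 1 time each. The probe lies between the 2 start sites, while the other *Cldn7* probe lies farther along the gene.

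*Cldn23*, a claudin of differentiated epithelia, had the largest difference of the 9 genes. Its intensity was 438 in WT and 127 in *Pnpla1*-/- skin, or 0.208 and 0.0733 after scaling. This was 2.83-fold lower, a difference of −1.50 ± 0.21, and 1.17% of all genes with a value had a lower one. Its only probe lies on the minus strand of chromosome 8 (mm9, 36888537 to 36888596).

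*Cldn3* encodes a claudin that tightens the barrier of many epithelia. The intensity of its probe was 467 in WT and 169 in *Pnpla1*-/- skin, or 0.222 and 0.0972 after scaling. It was 2.28-fold lower, a difference of −1.19 ± 0.21. The probe lies on the plus strand of chromosome 5 (135463284 to 135463342), and its last 30 bases hold the polyadenylation signal AATAAA, in capitals, which is found in 12.6% of all probes and in no other probe of the 9 genes.
Cldn3 probe: atttttcAATAAAagtctttcgttttttgc
In messenger RNAs this signal stands shortly before the poly(A) tail.

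*Cldn8*, another claudin of barrier epithelia, had an intensity of 495 in WT and 241 in *Pnpla1*-/- skin, with scaled signals of 0.235 and 0.139. The difference of −0.75 ± 0.21 was larger than its error and under 2-fold, and 5.73% of genes had a lower one. It passed 2-fold without scaling, at −1.04, and with spike-in centring, at −1.19. *Cldn1*, the claudin without which newborn mice die of water loss through the skin, had an intensity of 1409.8 in WT and 843 in *Pnpla1*-/- skin. Its scaled signals of 0.669 and 0.486 differed by −0.46 ± 0.20, a 1.38-fold lower value, and 13.1% of genes had a lower one. Both genes lie on chromosome 16, with the *Cldn1* probe at 26357372 to 26357431 and the *Cldn8* probe at 88561135 to 88561194 on the minus strand. These 4 genes were lower with each of the 13 other settings of scaling, background correction and choice of probes or spots.

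**Figure D1:**
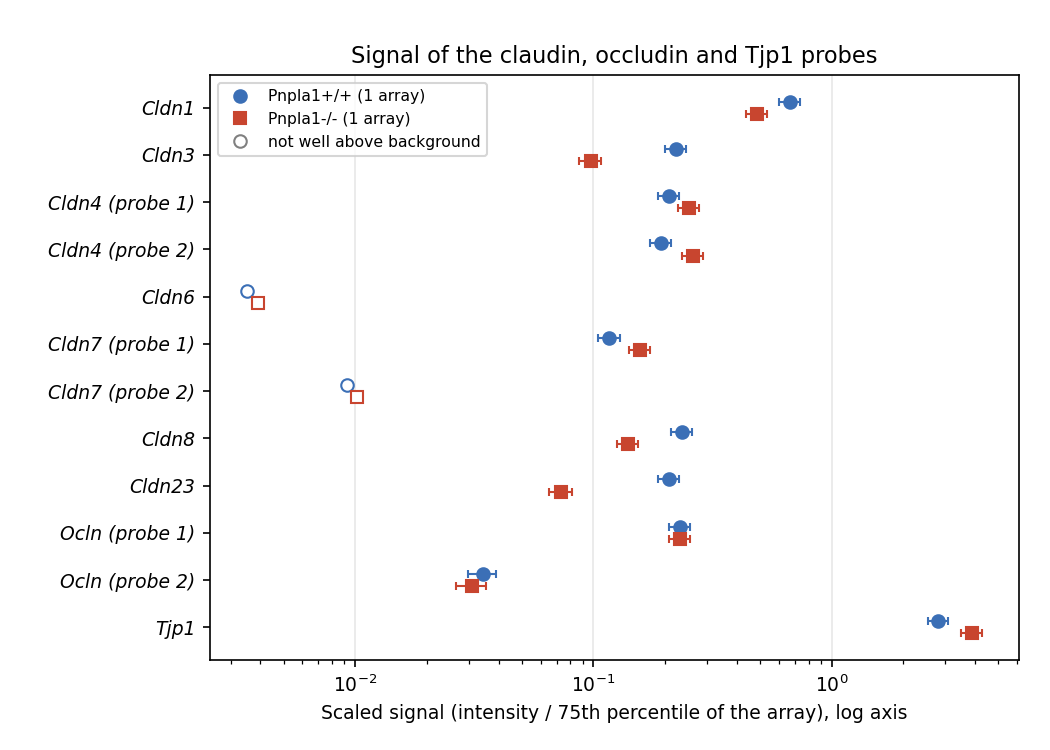
Scaled signal of the 12 probes of the 9 genes in *Pnpla1*+/+ skin (blue circles) and *Pnpla1*-/- skin (red squares), 1 array of pooled RNA each, on a log axis. Bars are the error of the scanner software's error model, open symbols are not well above background and have no bar, and the signals of *Cldn1*, *Cldn3*, *Cldn8* and *Cldn23* in *Pnpla1*-/- skin lie to the left of those in *Pnpla1*+/+ skin. Signals of different probes are not comparable.

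*Cldn4*, a claudin that lowers sodium passage, was measured by 2 probes. At the brighter one the intensity was 437.0 in WT and 436.7 in *Pnpla1*-/- skin, so that the difference of 0.28 ± 0.21 came from the scaling alone. The other probe had intensities of 405 and 454, a difference of 0.44 ± 0.21. They lie on the minus strand of chromosome 5, at 135421347 to 135421406 and 135422135 to 135422194. Without scaling the brighter probe gave −0.00097, and with centring on the spike-in RNA it gave −0.15, so the direction at this probe depended on the scaling, while the other probe had the higher intensity in *Pnpla1*-/- skin also before scaling.

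*Cldn7*, found along the sides of epithelial cells as well as at their junctions, had an intensity of 246 in WT and 273 in *Pnpla1*-/- skin at its brighter probe, farther along the gene. The scaled signals were 0.117 and 0.157, a difference of 0.43 ± 0.21 that became −0.0025 with spike-in centring. The probe upstream of its 2nd start site, printed above in capitals, had intensities of 19.5 and 17.6, neither well above background. The 2 probes lie at 69781255 to 69781314 and 69778772 to 69778831 on chromosome 11 (mm9).

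*Ocln* had an intensity of 488 in WT and 400.2 in *Pnpla1*-/- skin at its brighter probe, and 0.231 on both arrays after scaling. Its difference of −0.0027 ± 0.21 allows a change of this error in either direction. The brighter probe lies at 101268529 to 101268588 and a dimmer one at 101267384 to 101267443 on the minus strand of chromosome 13. This dimmer probe had intensities of 72.6 and 53.8 and a difference of −0.15 ± 0.28. The probe of *Tjp1*, on the minus strand of chromosome 7 (72441126 to 72441185), had intensities of 5915 in WT and 6724 in *Pnpla1*-/- skin, or 2.81 and 3.88 after scaling. Its difference of 0.47 ± 0.20 was the highest of the 9 genes, and it was above 0 with all 13 other settings, lowest at 0.035 with spike-in centring. The probe of *Cldn6*, on the plus strand of chromosome 17 (23819027 to 23819086), had intensities of 7.39 and 6.76, which give no difference.

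**Figure D2:**
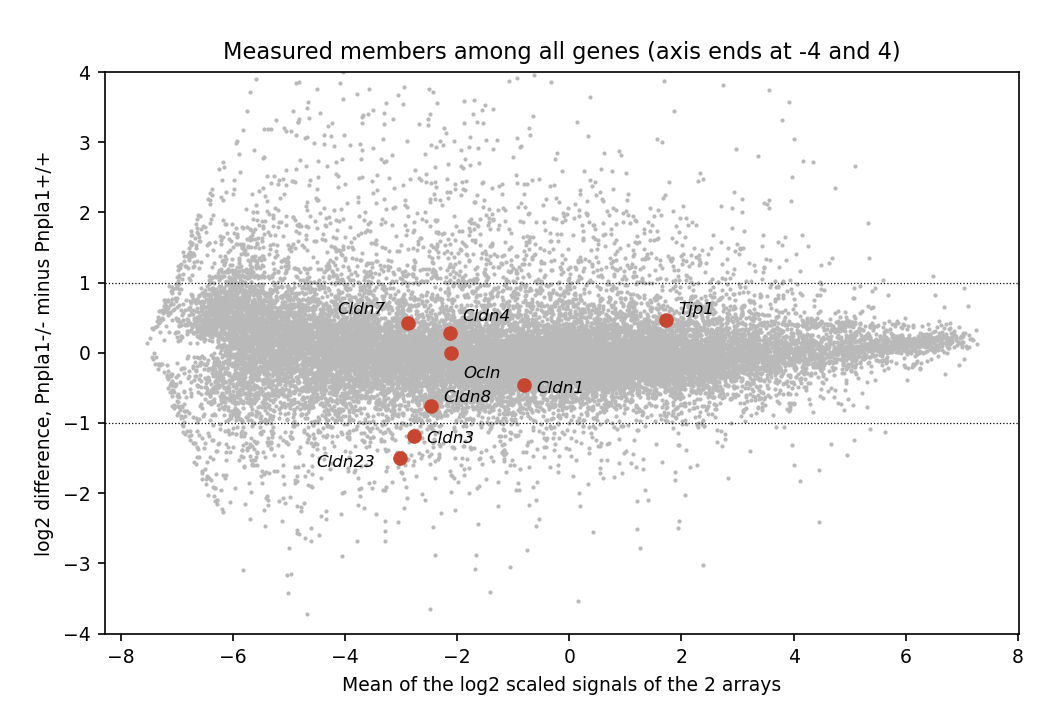
Each gray point is a gene with a value, with the mean of its log2 scaled signals on the 2 arrays on the x axis and its log2 difference, *Pnpla1*-/- minus *Pnpla1*+/+, on the y axis. Genes outside the range of the y axis are not drawn, dotted lines mark 2-fold, and the 8 measured members (red) include *Cldn3* and *Cldn23* below the lower line and none above the upper one.

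**Figure D3:**
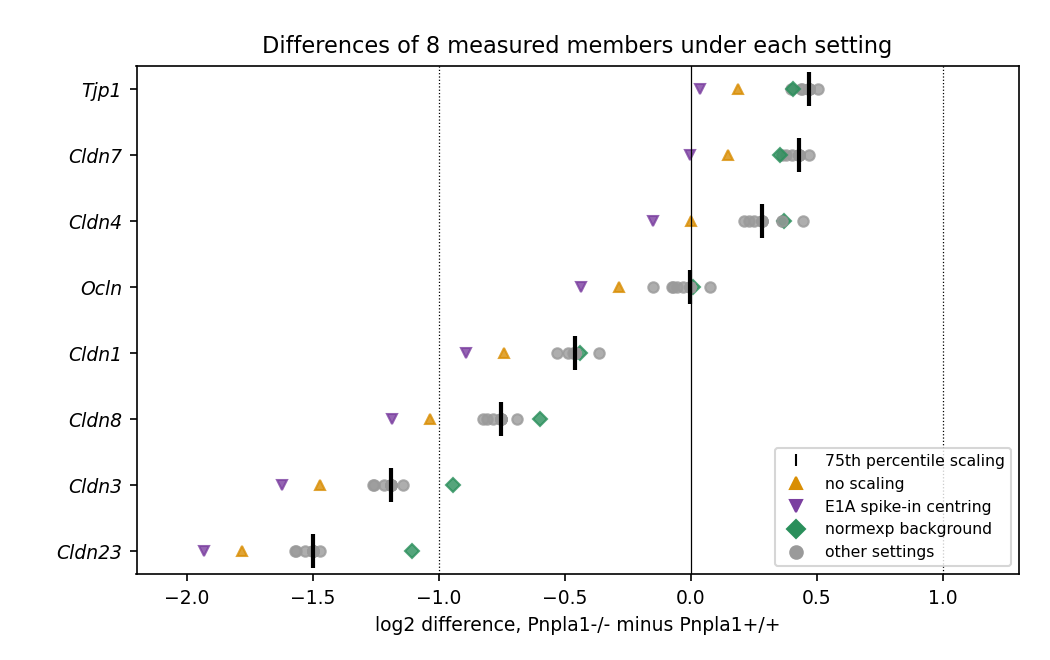
Log2 difference of the 8 measured members under each setting, with the value after 75th percentile scaling as a black bar and dotted lines at 2-fold. Spike-in centring and no scaling each move all genes to the left by a constant, *Cldn23* stays beyond 2-fold under all settings shown, and *Cldn3* with 12 of 13, the exception being normexp background correction.

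Some neighbouring genes had unlike differences. *Cldn3* and *Cldn4* are neighbours in the reference order of genes, with differences of −1.19 and 0.28, the latter below 0 without scaling and with spike-in centring. *Ocln* is followed by *Marveld2*, which encodes tricellulin, the protein of the points where 3 cells meet. *Marveld2* had an intensity of 517 in WT and 219.97 in *Pnpla1*-/- skin, a difference of −0.95 beside −0.0027 for *Ocln*. *Cldn9*, next to *Cldn6*, differed by −0.19, and *Cldn17*, next to *Cldn8*, by −0.03 with intensities of 41.3 and 33.3. *Cldn1* lies between *Cldn16*, which neither array measured well above background, and *P3h2*, a collagen prolyl hydroxylase gene, which differed by 1.23.

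Of 17 other claudin genes, 16 had a probe and 12 a value, with a median of −0.06. *Cldn20* was the only one past 2-fold, where 9.74% of all genes were. It had an intensity of 159 in WT and 62.9 in *Pnpla1*-/- skin and a difference of −1.06, which normexp background correction reduced to −0.59. *Cldn10*, a claudin that forms ion pores, had intensities of 1411 and 649 and a difference of −0.84. With spike-in centring *Cldn10* also passed 2-fold, at −1.27. *Cldn15*, another pore-forming claudin, differed by −0.34. *Cldn5*, the claudin of blood vessel endothelium, had intensities of 6880.3 and 5280.0 and differed by −0.10. *Cldn12* was higher by 0.44 and remained above 0 under all 13 settings, down to 0.010. *Cldn11*, the claudin of myelin, differed by 0.35, *Cldn19* by 0.19 and *Cldn14* by 0.13, and spike-in centring put all of these below 0, as further settings did for *Cldn14* and *Cldn19*. *Cldn2* passed background in WT skin only, with intensities of 45.2 and 17.5, and was at least 1.71-fold lower, a difference of −0.78. Over the alternatives this bound ranged from −1.21, past 2-fold, to −0.07. *Cldn22* passed background in *Pnpla1*-/- skin only, with intensities of 11.99 and 30.6, and was at least 1.56-fold higher, a difference of 0.64. Over the alternatives its value ranged from 0.21 to 1.64. *Cldn13*, *Cldn16*, *Cldn18* and *Cldn24* were below this level on both arrays. For such a bound, the dim signal was set to the lowest signal well above background on its array, or to its own where that was higher.

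In the other genes of the tight junction, plaque proteins also went both ways. Cingulin, encoded by *Cgn*, links ZO proteins to myosin, and its intensity was 4399 in WT and 1351 in *Pnpla1*-/- skin, a difference of −1.42. It was the only one of 22 plaque and polarity genes past 2-fold, where 9.74% of all genes were. *Pard6b*, of the cell polarity complex, was the highest of this list at 0.96, and the median was −0.04. *Tjp3*, which encodes the plaque protein ZO-3, differed by −0.50, against 0.47 for *Tjp1*, and kept its direction under the 13 settings. Among 11 other membrane proteins of the junction, *Crb3*, a polarity protein of the apical membrane, had intensities of 223 and 503 and was higher by 1.45, with 1.01 at a dimmer probe. *Marveld2* was the lowest at −0.95, so that no gene was at least 2-fold lower, but it passed 2-fold with spike-in centring, at −1.38. The list median was −0.06, and ranged from −0.49 to 0.31 over the alternatives. Of 9 claudin-related proteins with 4 passes, 8 had a value, from −0.62 for *Tmem47* to 0.94 for *Cldnd1*, with a median of −0.12 and none past 2-fold. With spike-in centring *Tmem47* and *Emp3* passed it, at −1.05 and −1.04.

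In the scaled signals of the brightest probes, other cell junctions had higher medians than the claudin and tight junction lists. This order did not hold under all alternatives for adherens junctions. The median of the other tight junction membrane proteins reached 0.31, while that of adherens junctions was at most 0.30 under any alternative. The 12 adherens junction genes had a median of 0.25, from −0.70 for *Nectin3* to 0.85 for *Nectin1*, with none past 2-fold at its brightest probe. The dimmer *Nectin3* probes gave −0.82 and −1.01, and spike-in centring put *Nectin3* at −1.13. Of all genes, 6.7% were at least 2-fold higher and 3.04% lower. Of 15 desmosome genes, 4 were at least 2-fold higher, namely the cadherins *Dsg3* at 1.82, *Dsg1b* at 1.45, *Dsc1* at 1.20 and *Dsg1c* at 1.04. *Dsg4*, a desmosomal cadherin of hair and the upper epidermis, was the only one at least 2-fold lower, at −1.50, but was at −0.61 under the alternative that left the smallest difference. Spike-in centring put *Dsc1* at 0.77 and *Dsg1c* at 0.61, under 2-fold. The list median was 0.41. With spike-in centring, which moved the median of all genes to −0.43, the medians became −0.66 for the 8 measured members, −0.19 for adherens junctions and −0.03 for desmosomes, all shifted alike by construction.

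**Figure D4:**
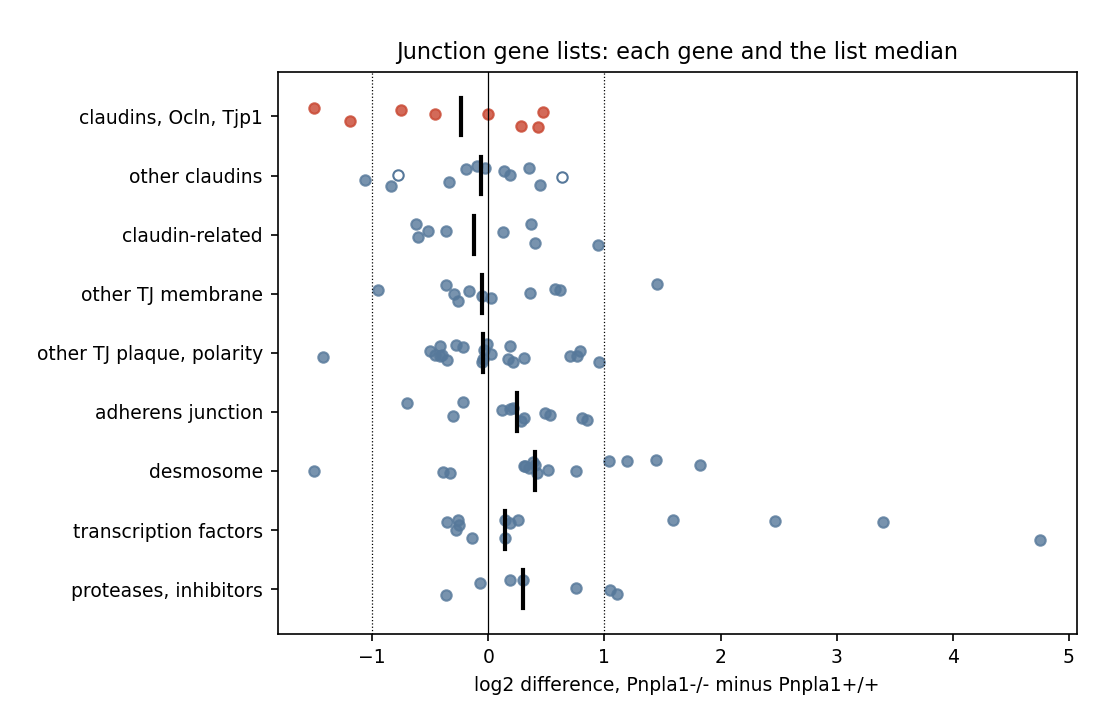
Log2 difference of each gene, *Pnpla1*-/- minus *Pnpla1*+/+, for the 9 lists of junction genes and their regulators, with the list median as a black bar, dotted lines at 2-fold and open circles for bounds. The claudin, *Ocln* and *Tjp1* genes (red) have a median of −0.23 and the desmosome genes one of 0.41.

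The largest differences of all the lists were among regulators of junction genes. Of 13 transcription factors, 4 were at least 2-fold higher and none lower, where 6.7% of all genes were higher and 3.04% lower. *Ehf*, an epithelial ETS factor, had an intensity of 528 in WT and 11715 in *Pnpla1*-/- skin, a difference of 4.75, with 4.61 at its other probe. *Elf3*, of the same family, went from 115 to 1001, a difference of 3.40. *Grhl3*, a grainyhead factor of barrier formation, went from 4689 to 21384, a difference of 2.47, while *Grhl1* and *Grhl2* differed by 0.15 and −0.25, *Grhl1* falling below 0 without scaling and with spike-in centring. *Ovol1*, a factor of keratinocyte differentiation, was higher by 1.59. *Snai2*, a repressor of epithelial genes, was the lowest at −0.35, and the list median was 0.15. Among 7 membrane proteases and their inhibitors, the protease gene *Tmprss11e* was higher by 1.11 and *Spint1*, which encodes an inhibitor of matriptase, by 1.05, with 0.96 at its other probe, and spike-in centring put both genes under 2-fold, at 0.68 and 0.62. *Prss8*, the protease prostasin, was the lowest of the 7 at −0.36, but its dimmer probe gave 0.14. The list median was 0.30.

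Markers of the cell types in skin were read beside these values. Of all genes with a value, 6.7% were at least 2-fold higher and 3.04% lower, which is 9.74% in either direction. Keratinocyte markers were well above background, with *Krt5* at an intensity of 220487 in WT and 210699 in *Pnpla1*-/- skin and *Krt10* at 277989 and 262540. After scaling, *Krt5* and *Krt10* differed by 0.22 and 0.20, and with spike-in centring by −0.22 and −0.23. Of the basal markers, *Krt14* at 1.35 and *Krt15* at −1.67 passed 2-fold. The medians were 0.06 for 6 basal, 0.10 for 5 suprabasal and 0.38 for 5 granular markers, of which 4 were above 0. Of the granular markers, *Lor* differed by −0.30 and *Tgm3* was the only one past 2-fold, at 2.12 at its brighter probe and 0.03 at the other. Of 8 hair follicle markers, 7 were below 0 and 4 of these at least 2-fold lower, while *Foxn1* was at 0.52, with a median of −0.96 and a summed intensity, before scaling, of 138193 in WT and 64236 in *Pnpla1*-/- skin. *Krt71*, with the highest intensity of these probes, differed by −0.82, all 8 were well above background on both arrays, and the part of follicle RNA in the lower values of *Cldn1*, *Cldn3*, *Cldn8* and *Cldn23* was not tested. Of 6 markers of simple epithelium or periderm, *Krt7* at −1.92 and *Krt19* at −1.11 were at least 2-fold lower, and *Krt13* gave 1.15 at its brighter probe and −2.04 at the other. The median of these 6 markers was −0.48, and −0.96 with the dimmest probe of a gene. Their summed intensity went from 17732 to 29664, of which the brighter *Krt13* probe gave 15516 and 28402. *Krt4* passed background in WT skin only, and the part of these markers in the claudin values was not tested either. Leukocyte markers had a median of 0.63, with *Lyz2* at 2.35 and *Ptprc* at 1.51 past 2-fold among 6, all well above background, and a summed intensity of 17032 and 17770.0. *Itgam*, named for the intensity of its brightest probe, gave −0.03 at its brightest probe, which supplied 11846 and 9569 of these sums, and 1.14 and 2.84 at its other probes. The median was 0.35 for 6 endothelial markers (*Kdr* 0.31), 0.14 for 5 of Schwann cells (*Mbp* 1.34 at its brightest probe and 1.39 and 0.30 at the others), −0.07 for 6 of fibroblasts (*Col1a2* −0.17), −0.01 for 5 of skeletal muscle (*Myh8* 0.28) and 0.03 for 4 of adipocytes (*Fabp4* 0.10).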

How the data were processed

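Skin RNA of 6 newborn mice per genotype was pooled on 1 array each, a Mouse Gene Expression 4x44K v2 array, labelled with Cy3 from 200 ng of RNA. The authors scanned the arrays, processed them with Agilent Feature Extraction 11.5.1.1 and deposited the linear intensity of each spot after background subtraction, with its error, its mean pixel and local background intensity and its flags (0 or 1, other values). The authors also deposited a table of the same intensities as a ratio to a single factor, 2109 (WT) or 1734 (*Pnpla1*-/-), after a global normalization whose statistic is not given in the sources used here.

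From the processed intensities of 43020 spots, of which 71.7% (WT) and 73.3% (*Pnpla1*-/-) were well above background and none saturated, log2 signals were taken relative to the 75th percentile of each array. Spots flagged as outliers were left out, repeated spots of a probe were averaged, and a gene was represented by its brightest probe. Names were updated through a RefSeq table on GRCm38.p6 (27508 of 39429 probes by accession, 3544 by symbol, 404 by an older symbol, 7973 kept). Of 30133 genes, 20680 passed the scanner software's test against background on each array and have a difference, 1710 passed it on 1 array and have a bound where this exceeds 1-fold, and 7743 on none, which leaves 22383 genes with a value. Genes were counted at 2-fold. Repeated spots gave a technical SD of a difference of 0.08 (309 probes with at least 8 spots well above background on both arrays). With 1 array a genotype there is no test, and the number of arrays limits the precision. Python 3.11.15, numpy 2.4.6, pandas 2.3.3 and, for quantile, cyclic loess and normexp settings, limma 3.58.1 under R 4.3.3 were used, and the computation was tested on simulated data.

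The members, the 8 other lists of junction genes and regulators, the 11 lists of cell type markers, and the rule for genes to name were chosen with earlier results of these data known. Named are all members, the genes of each junction list past 2-fold with its highest and lowest, other claudins well above background, and the brightest gene of each marker list. *Tjp3*, *Grhl1*, *Grhl2*, the neighbouring genes and further markers were named after their values were seen. *Cldn25* and *Flg* had no probe under these names. The alternatives were median scaling, unscaled signals, a 75th percentile taken over probes that passed background on each array, quantile normalization, cyclic loess, centring on 8 E1A spike-in probes, normexp background correction with an offset of 50, the authors' ratios, the mean of a gene's probes, its dimmest probe, only probes that passed on both, all probes however dim, outlier spots kept, and thresholds of 1.5-fold and 3-fold.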

Additional observations from a re-analysis of the deposited data

How the results depend on the processing

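*Cldn1*, *Cldn3*, *Cldn8*, *Cldn23* and *Tjp1* kept their direction under all 13 alternatives. Without scaling, *Cldn4* was at −0.00097 and the members' median at −0.51, and 4.47% of genes were higher and 6.37% lower by at least 2-fold. With spike-in centring, *Cldn4* was at −0.15, *Cldn7* at −0.0025 and the median at −0.66, and the shares were 3.73% and 9.84%. Under both, *Cldn8* also passed 2-fold, which made 3 members lower. After scaling, the median of the 8 spike-in probes was 0.43, and by construction these settings shift all genes alike, to a median of −0.28 and −0.43. Which scaling matches the amounts of RNA was not tested. The members' median was −0.14 with cyclic loess, where the cause was not tested, and −0.0027 with no filter on dim probes, which adds *Cldn6* at 0.15. Normexp left 1 member at least 2-fold lower, *Cldn23* at −1.11 with *Cldn3* at −0.94, and 4.34% of genes higher and 1.45% lower, and the cause was not tested. With no filter the median of all genes was 0.10, and 10.1% of genes were higher and 3.67% lower. By construction, a threshold of 1.5-fold gave 13.8% and 9.35%, with 0 members higher and 3 lower. One of 3-fold gave 3.06% and 1.02%, with 0 members higher and 0 lower. The share of higher genes among those past 2-fold was 68.8%, and 27.5% with spike-in centring, 41.2% without scaling and 58.8% after quantile normalization. No paired analysis was possible because each genotype had 1 array, so that no replicate could be left out either. *Cldn6*, *Cldn2*, *Cldn22* and the upstream *Cldn7* probe are limited by signal over background.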
